A study of Mus musculus with 8 samples.

Results

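Hepatic stellate cells were set against the vitamin A-negative, GFP-positive cells of the same kind of mouse, a pair that takes 2 of the 8 expression arrays of a study of mesenchymal cells in mouse liver. The stellate array (HSC) holds VitaminA+ cells, and the other holds VitaminA-GFP+ cells. Both came from adult C57Bl6 mice carrying Col1a1-GFP, a transgene in which collagen gene control sequences drive green fluorescent protein, and no injury is named for either. The remaining arrays hold whole liver of an adult wild-type C57Bl6 mouse and 5 further sorted samples from adult Col1a1-GFP mice on the same background. These are GPM6A+ mesothelial cells (MC) with no injury named, portal fibroblasts (PF) after a sham operation, and the 3 cell types (HSC, PF, MC) isolated from biliary fibrosis. Each group is 1 array. There is therefore no replicate, no test and no error for any difference, and every value below compares single arrays of amplified RNA. The sources used here do not say how many animals were pooled for an array.

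Levels are log2 RMA intensities, and a difference is the level in HSC minus the level in VitaminA-GFP+ cells, so that 1 is a 2-fold and 2 a 4-fold difference. A gene is called higher or lower in HSC when the difference is at least 2 in size and the brighter of the 2 arrays is at or above its own median. A difference between bulk arrays cannot tell fewer cells of a type from less RNA per cell.

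Stellate cells are the pericytes of the liver sinusoid. They take up retinol, esterify it and keep it in lipid droplets, whose autofluorescence allows them to be sorted, and on injury they can become matrix-producing myofibroblasts. Collagen-producing cells without vitamin A lie mostly around portal tracts, in vessel walls and in the liver capsule, and include portal fibroblasts, smooth muscle cells and mesothelial cells. The comparison asks how the transcripts of the vitamin A-storing cells differ from those of the remaining collagen reporter cells.

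The sequences upstream of 4 genes are printed to show what the promoters of a vitamin A gene, a fibroblast gene and 2 contractile genes look like. They are the 200 bases before the transcript start in RefSeq, build GRCm38.p6, read 5′ to 3′ on the gene's strand. Of 11 genes looked up, 6 matched a promoter entry, among them Lrat and Cnn1, which are not printed. Bco1 (chr8:117095665-117095864, plus strand) encodes the enzyme that cleaves beta-carotene, and capitals mark TATAAA, which begins 28 bases before the start. Dpt (chr1:164796463-164796662, plus strand) encodes the matrix protein dermatopontin. Acta2 (chr19:34255374-34255573, minus strand) encodes smooth muscle actin. Myl9 (chr2:156775264-156775463, plus strand) encodes a myosin light chain, and its capitals mark a CArG box, the element bound by serum response factor, which begins 161 bases before the start.
Bco1: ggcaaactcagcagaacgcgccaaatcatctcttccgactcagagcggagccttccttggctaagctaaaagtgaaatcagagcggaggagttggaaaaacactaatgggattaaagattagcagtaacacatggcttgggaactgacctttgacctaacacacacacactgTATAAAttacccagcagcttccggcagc
Dpt: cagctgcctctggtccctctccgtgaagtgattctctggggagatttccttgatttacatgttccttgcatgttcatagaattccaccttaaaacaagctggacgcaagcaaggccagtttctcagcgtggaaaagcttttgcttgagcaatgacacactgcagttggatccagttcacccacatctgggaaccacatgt
Acta2: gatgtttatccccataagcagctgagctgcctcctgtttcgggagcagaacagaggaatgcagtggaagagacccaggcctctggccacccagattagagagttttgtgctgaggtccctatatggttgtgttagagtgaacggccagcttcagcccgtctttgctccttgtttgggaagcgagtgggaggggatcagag
Myl9: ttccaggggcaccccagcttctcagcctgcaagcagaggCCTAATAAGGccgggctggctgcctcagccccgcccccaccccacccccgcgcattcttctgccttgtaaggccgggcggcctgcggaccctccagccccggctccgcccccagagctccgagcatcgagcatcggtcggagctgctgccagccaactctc
TATAAA was searched on both strands and the CArG box as CC, 6 bases that are A or T, then GG, which covers both strands. TATAAA on either strand is in 9.96% of the 32851 RefSeq promoters over the same 200 bases, and the CArG box in 1.18%. Neither motif, as so defined, is in the Dpt or Acta2 window, nor in the windows of Lrat and Cnn1. Sequences close to the CArG pattern, such as ccctatatgg and ccttgtttgg in the Acta2 window, were not counted. Myl9 was added after the motifs were searched.

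The arrays of the pair were closer to each other in control probe set ratios than to the arrays of sham surgery and biliary fibrosis. Their array medians differed, at 44.26 in HSC and 51.22 in VitaminA-GFP+ cells, the highest of all arrays. The ratio of the 3' to the 5' control probe set of Actb was 1.84 and 1.43 in the same order. The ratio of the 3' to the 5' control probe set of Gapdh was 1.75 in HSC and 1.56 in VitaminA-GFP+ cells, against 5.68 to 13.79 on the 4 arrays of sham surgery and biliary fibrosis. Xist, which marks an inactive X chromosome, stood at 4.37 and 4.47, and the Y-linked Ddx3y at 10.99 and 10.47, a pattern of male RNA that the 3 biliary fibrosis arrays shared. Whole liver and sham PF had the reverse, with Xist at 11.40 and 11.96 and Ddx3y at 2.04 and 2.78, and MC without stated injury were bright for both genes, at 11.41 and 9.67. Another Y-linked gene, Eif2s3y, was nevertheless higher in HSC by 2.72. Among 5522 genes with several probe sets at the minimum level, the median SD between the probe sets was 0.363, which describes the measurement and not the animals.

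Of 20677 genes, 593 (2.87%) were called higher in HSC and 1470 (7.11%) lower, 2063 (9.98%) in all, so 71.3% of the called genes were lower in HSC. Over all genes the median difference was 0.059. The differences reached further on the side of VitaminA-GFP+ cells: 165 genes were lower in HSC by at least 6, against 0 that were higher by at least 6, and the largest sizes were 10.44 for Mgp and 5.95 for Dach1. This holds for the 1 probe set kept per gene. Other probe sets of Tlcd4, Lrrc4c and Lrat differed by 8.47, 6.23 and 6.13. With every array shifted to the same median the split was 729 higher and 1332 lower, or 64.6% lower. In most called genes the dimmer array lay below its own median. This held for 394 of the 593 higher genes and for 1063 of the 1470 lower ones.

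**Figure D1:**
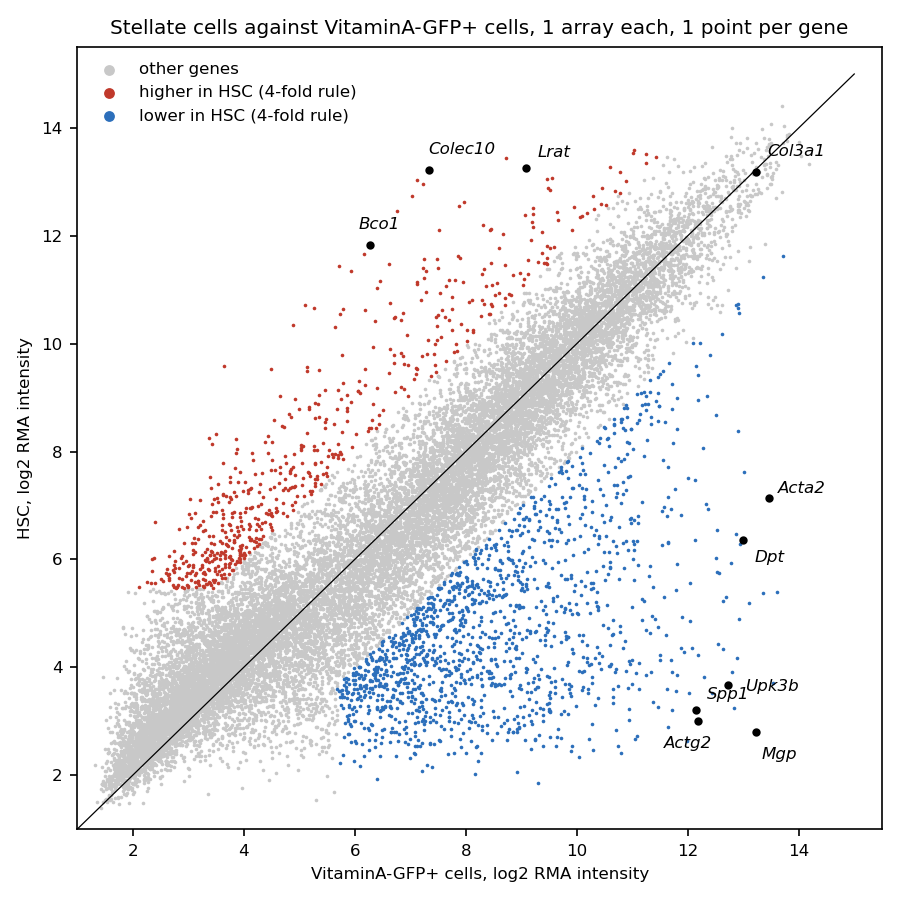
Level of each of 20677 genes in VitaminA-GFP+ cells (x axis) and in HSC (y axis), both as log2 RMA intensity on 1 array; the line marks equal levels. Red points are the 593 genes called higher in HSC and blue points the 1470 called lower, and the blue points reach farther from the line than the red.

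The 593 higher genes were not of one kind. On the HSC array of biliary fibrosis, 131 of them (22.1%) reached the level of the HSC array to within 1 log2 unit, or exceeded it, against 83.7% of all genes at or above the median of HSC. On the MC array with no stated injury, 298 of the 593 (50.3%) did so, against 81.3% of the same background. Only 8 genes did so on both. The 593 genes were picked for a high level on the HSC array, and the background was not. Fewer matches on other arrays are therefore partly fixed by that choice. Clone-type or predicted names were carried by 165 of the 290 genes that stood as high in MC but not in HSC of biliary fibrosis, by 9 of the 123 that stood as high in HSC of biliary fibrosis but not in MC, and by 19.1% of all genes. The 290 genes were dim, with a median 1.12 above the array median in HSC, against 4.90 for the 123. The arrays of whole liver, HSC and MC without stated injury carry sample codes of 1 kind and VitaminA-GFP+ cells a code of another kind. The sources used here do not say what the codes mark, and their part in the count was not tested. Without the genes that stood as high in MC, 295 higher genes remain, and without clone-type names 369.

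Levels of stellate genes were compared over the arrays. The genes were chosen with earlier results of these arrays known. Colec10 and Bco1 are also among the largest differences toward HSC in this pair. Their high level in HSC is therefore partly fixed by that choice and cannot check the label of the HSC array. Colec10, a collectin of innate immunity, had a level of 13.21 in HSC, 7.33 in VitaminA-GFP+ cells, 5.95 in sham PF, 4.25 in MC and 9.34 in whole liver, with 12.69 in HSC, 8.05 in PF and 7.46 in MC of biliary fibrosis. Bco1 measured 11.83 in HSC against 6.27 in VitaminA-GFP+ cells, and 8.18 in whole liver, 4.83 in MC, 4.46 in sham PF, 10.49 in HSC of biliary fibrosis, 5.29 in PF of biliary fibrosis and 5.28 in MC of biliary fibrosis. Both genes were highest on the 2 HSC arrays, followed by whole liver. Lrat, which esterifies retinol for storage, stood at 13.26 in HSC and 9.09 in VitaminA-GFP+ cells, at 3.38 in MC, 8.82 in whole liver and 6.69 in sham PF, and at 12.68, 3.63 and 3.30 in the HSC, PF and MC arrays of biliary fibrosis. Reelin, Reln, an extracellular signalling protein, had a level of 13.59 in HSC, 11.03 in VitaminA-GFP+ cells, 7.73 in sham PF, 3.61 in MC and 9.94 in whole liver, with 13.30 in HSC, 5.85 in PF and 3.89 in MC of biliary fibrosis. For Lrat and Reln the VitaminA-GFP+ array came next after the 2 HSC arrays, above whole liver and sham PF.

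Among 45 measured stellate markers, chosen with earlier results of these arrays known, 26 were higher in HSC, 0 lower and 19 neither, with a median difference of 2.53 against 0.059 over all genes. The counts of this and the following lists stand beside 2.87% higher and 7.11% lower over all genes. The lists overlap, and a gene on several of them is counted in each. Besides Colec10 (5.88), Bco1 (5.56), Lrat (4.17) and Reln (2.56), the higher ones included the receptor for vasoactive intestinal peptide, Vipr1 (5.70), the hedgehog-binding inhibitor Hhip (5.496), Angptl6 (5.74), Tlcd4 (5.90), the ficolin Fcna (4.72), the homeodomain factor Lhx2 (4.44), the low-affinity neurotrophin receptor Ngfr (4.12), hepatocyte growth factor, Hgf (4.07), and the Wnt-enhancing R-spondin Rspo3 (2.63). Glial fibrillary acidic protein, Gfap, differed by 3.18. Other genes by which stellate cells are often recognised did not meet the rule. Desmin, Des, an intermediate filament, stood at 10.21 in HSC and 10.87 in VitaminA-GFP+ cells. The platelet-derived growth factor receptor Pdgfrb stood at 12.06 and 11.53. All 45 markers were at or above the array median in HSC, and 42 of them were in VitaminA-GFP+ cells too. Their intensities summed to 292589 in HSC and 93486 in VitaminA-GFP+ cells.

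Of 43 measured retinoid genes, 2 (4.65%) were higher in HSC (Bco1 and Lrat), 7 (16.3%) lower and 34 neither. The share of higher genes is near the 2.87% of all genes. The list had a median of -0.19, and 13 members were below the median on both arrays. An enzyme that makes retinoic acid and another that degrades it were among the lower ones. Other enzymes that make retinoic acid did not meet the rule. Aldh1a1 stood at 11.71 in HSC and 11.69 in VitaminA-GFP+ cells, and Aldh1a3 at 7.81 and 6.38. Aldh1a2, which makes retinoic acid, measured 3.88 in HSC against 8.81 in VitaminA-GFP+ cells, and 4.01 in whole liver, 10.27 in MC, 9.26 in sham PF, 9.23 in HSC of biliary fibrosis, 8.78 in PF of biliary fibrosis and 9.85 in MC of biliary fibrosis. It was lowest in HSC, and the level in HSC of biliary fibrosis was close to those of the fibroblast arrays. Cyp26b1, which degrades retinoic acid, stood at 4.08 in HSC and 10.41 in VitaminA-GFP+ cells, a difference of -6.32. The carboxylesterase Ces1d (-4.29), the fatty acid transporter Cd36 (-3.13) and the retinol carrier Rbp4 (-2.02) were lower in HSC as well. Ces1d and Rbp4 were bright in whole liver (12.69 and 12.95), and with arrays shifted to the same median Rbp4 differed by -1.81, short of the rule. Cells were sorted on vitamin A, so the storage genes are not independent of the gate.

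Receptors for vasoactive peptides, prostanoids and nucleotides formed the group with the most higher members after the stellate markers. The 2 lists are not separate, and genes such as Ptger2, Vipr1 and Pth1r are on both. Of 46 measured receptors and channels, 11 were higher in HSC, 7 lower and 28 neither, and the median was 0.24. The prostaglandin E receptor Ptger2 stood at 11.44 in HSC and 5.72 in VitaminA-GFP+ cells, at 3.35 in MC, 6.20 in whole liver and 5.91 in sham PF, and at 9.05, 4.14 and 5.09 in the HSC, PF and MC arrays of biliary fibrosis. Only the 2 HSC arrays exceeded 7 for this gene. Higher in HSC were also P2ry14, a receptor for nucleotide sugars (4.71), and Pth1r, the receptor for parathyroid hormone (3.52). On the other side, another prostaglandin E receptor, Ptger4 (-4.54), and the natriuretic peptide receptor Npr1 (-3.81) were lower in HSC. Outside the list, the succinate receptor Sucnr1 (5.45) and the glucagon receptor Gcgr (4.85) were among the 15 largest differences toward HSC. Gcgr stood at 10.64 in HSC, 5.79 in VitaminA-GFP+ cells and 11.26 in whole liver, where hepatocytes express it.

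Secreted pattern-recognition proteins were divided as well. Of 34 measured collectin, complement and lectin genes, 4 were higher in HSC: Colec10, Fcna (4.72), the complement component C6 (2.85) and the lectin-pathway protease Masp1 (2.04, and 1.96, short of the rule, after a new quantile normalization). Lower were 11, among them the beta-galactoside-binding lectin Lgals3 (-7.34), the plasminogen-binding lectin Clec3b (-4.63), the scavenger collectin Colec12 (-4.38) and C1qb (-5.21), a complement gene of macrophages. The list median was -0.36.

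Of 59 measured chemokines, cytokines and growth factors, 5 were higher in HSC and 22 lower, with a median of -0.91. The 5 were Angptl6 (5.74), Hgf (4.07), Cxcl14 (3.40), the macrophage growth factor Il34 (2.38) and the monocyte attractant Ccl2 (2.25). Hgf, the ligand of the receptor Met on hepatocytes, had a level of 11.35 in HSC, 7.29 in VitaminA-GFP+ cells, 5.93 in sham PF, 3.81 in MC and 6.31 in whole liver, with 10.38 in HSC, 5.51 in PF and 5.73 in MC of biliary fibrosis. The 2 HSC arrays were the only ones above 8. Cxcl12, which holds blood-forming cells in place, stood at 13.72 and 12.87 in the pair and at 3.497 in MC, and averaged over its probe sets it differed by 2.003, which meets the rule. Lower in HSC were osteopontin, Spp1 (-8.93), Il18 (-6.80), the B cell attractant Cxcl13 (-6.48), Il1a (-6.12) and Angptl7 (-5.57).

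**Figure D2:**
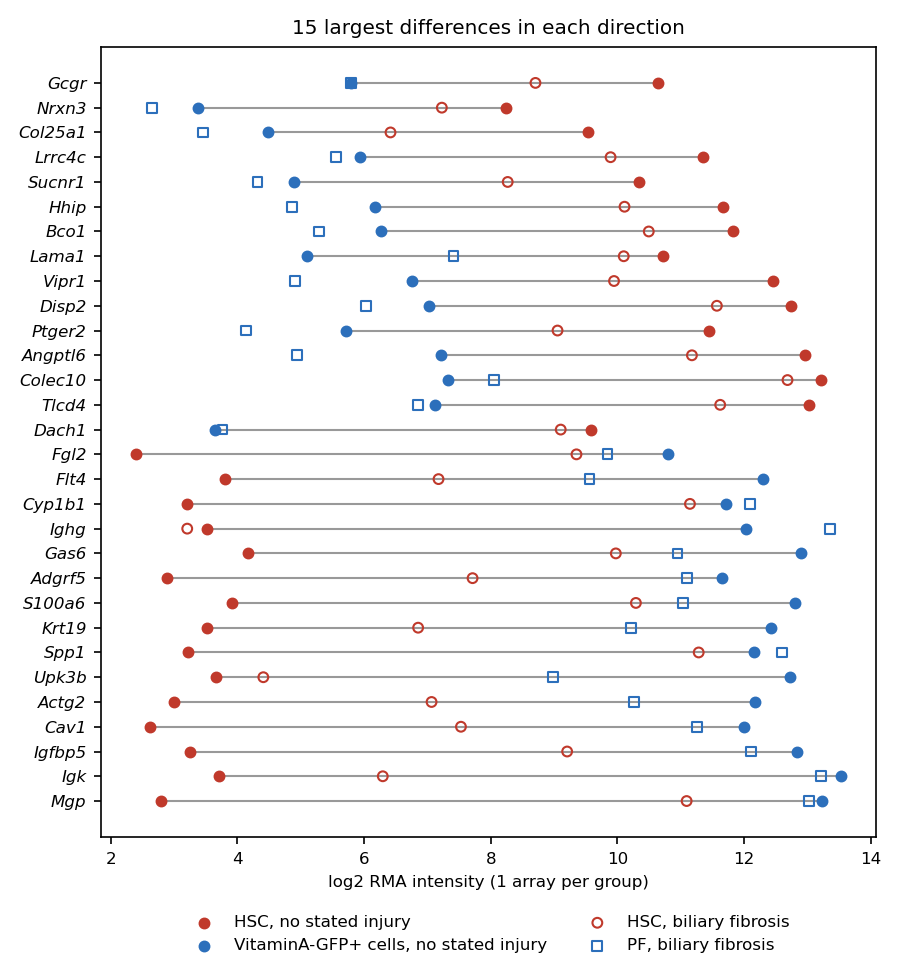
The 15 largest differences toward HSC (top) and toward VitaminA-GFP+ cells (bottom), as log2 RMA intensity on 1 array per group; filled points are the 2 arrays compared, and open symbols are HSC (circle) and PF (square) of biliary fibrosis. All 30 open pairs keep the order of the filled pair, and Mgp, for example, stands at 2.79 and 13.23 in the filled pair and at 11.09 and 13.02 in the open one.

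The 15 largest differences toward VitaminA-GFP+ cells included genes known from several kinds of cell. As background, Mgp, Igfbp5, Gas6 and Actg2 are made by fibroblasts or smooth muscle, Upk3b and Krt19 by epithelia and mesothelium, Flt4 and the adhesion receptor Adgrf5 (-8.75) by endothelium, and Igk and Ighg by plasma cells. In MC without stated injury, Mgp stood at 12.67, Igfbp5 at 13.73, Gas6 at 13.23 and Actg2 at 3.03. Caveolin 1, Cav1, the coat protein of caveolae, measured 2.63 in HSC against 11.99 in VitaminA-GFP+ cells, and 6.503 in whole liver, 13.11 in MC, 10.43 in sham PF, 7.53 in HSC of biliary fibrosis, 11.25 in PF of biliary fibrosis and 12.59 in MC of biliary fibrosis. The HSC array without stated injury was the lowest, followed by whole liver and HSC of biliary fibrosis. The calcium-binding S100a6 (-8.89), the cytochrome Cyp1b1 (-8.51, and -4.87 as the mean of its probe sets) and the fibrinogen-like Fgl2 (-8.39) completed the set with Spp1.

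Hedgehog and Wnt pathway genes stood on both sides. Hedgehog ligands bind Patched and release Smoothened, which activates Gli factors, while Hhip binds the ligand away from Patched. Of 46 measured genes of both pathways, 6 were higher in HSC and 14 lower, with a median of -0.64. Hhip (5.496) and Disp2, of the Dispatched family (5.71), led toward HSC, Disp2 with 2.76 as the mean of its probe sets. Gli1, a target and effector of the pathway, stood at 4.004 in HSC and 6.38 in VitaminA-GFP+ cells, at 6.05 in MC, 3.89 in whole liver and 7.55 in sham PF, and at 4.505, 6.83 and 7.24 in the HSC, PF and MC arrays of biliary fibrosis. It was lowest in whole liver and HSC and highest in sham PF. Rspo3 (2.63) was higher in HSC, whereas another R-spondin, Rspo1 (-6.57), the secreted Wnt inhibitors Sfrp1 (-8.30) and Sfrp2 (-4.83) and the Frizzled receptor Fzd2 (-4.74) were lower.

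In PDGF, TGF-beta and BMP signalling, 3 of 46 measured genes were higher in HSC and 12 lower, with a median of -0.49. The 3 were the BMP ligands Gdf2 (3.39) and Bmp5 (2.66) and the activin receptor Acvr2a (2.14). Gdf2, also known as BMP9, acts on endothelial cells. Lower were the ligand Pdgfc (-6.11), the activin subunit Inhbb (-6.32), Bmp6 (-4.65), the secreted antagonist Fst (-4.59) and the latent TGF-beta binder Ltbp2 (-6.84). The probe sets of Inhbb averaged -3.41. The receptor Pdgfra stood at 12.496 in HSC and 11.61 in VitaminA-GFP+ cells, so that neither PDGF receptor met the rule.

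Genes first known from the nervous system stood on both sides. Of 52 measured axon guidance and neurotrophin genes, 8 were higher in HSC and 13 lower, and the median was -0.07. Ngfr had a level of 10.76 in HSC, 6.64 in VitaminA-GFP+ cells, 8.31 in sham PF, 5.73 in MC and 5.82 in whole liver, with 10.53 in HSC, 5.999 in PF and 4.503 in MC of biliary fibrosis. The 2 HSC arrays were the highest, followed by sham PF. Another 3 genes of neuronal adhesion and matrix were among the 15 largest differences toward HSC outside this list: the neurexin Nrxn3 (4.87), the netrin-G ligand Lrrc4c (5.42) and the transmembrane collagen Col25a1 (5.04). Nrxn3 differed by 1.81 after a new quantile normalization, short of the rule, and averaged over probe sets Nrxn3 differed by 3.07 and Col25a1 by 2.93. The semaphorin Sema3c (-6.96), its co-receptor Nrp2 (-6.82), the plexin Plxna4 (-5.68) and the Robo ligands Slit2 (-4.72) and Slit3 (-4.58) were lower in HSC. The probe sets of Slit2 disagreed, from -4.72 to 0.54, and their mean of -1.58 did not meet the rule.

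Of 63 measured transcription factors of liver mesenchyme, 4 (6.35%) were higher in HSC (Lhx2 by 4.44, Foxf1 by 2.16, Hand2 by 2.12 and Zeb2 by 2.05), 15 (23.8%) lower and 44 neither, with a median of -0.16, and 15 were below the median on both arrays and could not be called. Lhx2, a factor that restrains stellate cell activation in mouse, measured 10.63 in HSC against 6.19 in VitaminA-GFP+ cells, and 4.69 in whole liver, 4.84 in MC, 4.99 in sham PF, 9.80 in HSC of biliary fibrosis, 4.36 in PF of biliary fibrosis and 4.69 in MC of biliary fibrosis. It exceeded 9 on the HSC arrays alone. Gata4 stood at 10.40 and 10.47 and Tcf21 at 12.59 and 12.02 in HSC and VitaminA-GFP+ cells, and the nuclear receptor Nr2f1 differed by 0.38. The factors lower in HSC included Wt1, a factor of mesothelium (-6.90), Prrx1 (-5.78), Foxc2 (-5.08), Osr1 (-4.52) and Meox2 (-4.10). For Prrx1 the probe sets ran from -5.78 to -1.72 with a mean of -2.83, and for Hand2 and Foxf1 the means of 1.87 and 1.86 did not meet the rule. Dach1, a transcriptional cofactor outside the list, had the largest difference toward HSC (5.95), from 3.64 in VitaminA-GFP+ cells to 9.59 in HSC.

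VitaminA-GFP+ cells carried fibroblast genes of the portal tract and of vessel adventitia. Of 45 measured markers, 28 were lower in HSC, 2 higher (the ecto-nucleotidase Nt5e, 4.10, and N-cadherin, Cdh2, 3.33) and 15 neither, with a median of -2.63. Matrix Gla protein, Mgp, an inhibitor of calcification, stood at 2.79 in HSC and 13.23 in VitaminA-GFP+ cells, at 12.67 in MC, 7.07 in whole liver and 13.06 in sham PF, and at 11.09, 13.02 and 11.35 in the HSC, PF and MC arrays of biliary fibrosis. It was low on the HSC array, intermediate in whole liver and above 11 on the other 6. Dermatopontin, Dpt, had a level of 6.35 in HSC, 12.997 in VitaminA-GFP+ cells, 13.58 in sham PF, 5.47 in MC and 7.61 in whole liver, with 10.82 in HSC, 11.70 in PF and 7.02 in MC of biliary fibrosis. Dpt was highest in sham PF and VitaminA-GFP+ cells and low in both MC arrays, which Mgp was not.

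Other fibroblast markers differed in their pattern over the arrays. Thy1, a surface protein of portal fibroblasts, measured 2.95 in HSC against 9.20 in VitaminA-GFP+ cells, and 4.61 in whole liver, 8.26 in MC, 11.27 in sham PF, 7.53 in HSC of biliary fibrosis, 10.87 in PF of biliary fibrosis and 10.54 in MC of biliary fibrosis. HSC was the lowest array and sham PF the highest. Pi16, a peptidase inhibitor of adventitial fibroblasts, stood at 3.24 in HSC, 9.33 in VitaminA-GFP+ cells, 10.64 in sham PF and 5.08 in MC. Cd34 stood at 2.73, 11.08, 12.22 and 11.39 in the same order. Pi16 separated the fibroblast arrays from MC, and Cd34 did not. Growth arrest-specific 6, Gas6, a ligand of TAM receptors (-8.73), the IGF-binding protein Igfbp5 (-9.59), the dipeptidase Dpep1 (-8.24), elastin, Eln (-4.16), fibulin 2, Fbln2 (-4.33), and the ecto-ATPase Entpd2 (-3.03) were all lower in HSC. Most of them do not set fibroblasts apart from MC. In MC without stated injury Gas6 (13.23), Igfbp5 (13.73), Eln (11.74) and Fbln2 (7.40) stood higher than in VitaminA-GFP+ cells (12.89, 12.84, 10.755 and 6.99). Entpd2 stood at 9.23 in MC and 9.61 in VitaminA-GFP+ cells, and Dpep1 at 2.998 and 11.80. Mgp and Dpt stood higher in HSC of biliary fibrosis than in HSC without stated injury, whereas Entpd2 stood at 6.58 in HSC and 6.60 in HSC of biliary fibrosis. For several of these the probe set mattered: averaged over probe sets Gas6 differed by -4.85, Eln by -2.75, Fbln2 by -2.45, Pi16 by -3.80 and Nt5e by 2.68. With probe sets that match a single transcript, Fbln2 (-0.57) and Pi16 (-1.51) did not meet the rule.

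Contractile genes formed another group on that side. Of 34 measured smooth muscle and pericyte genes, 17 were lower in HSC, 1 higher (the G-protein signalling regulator Rgs4, 3.67) and 16 neither. The median was -1.50, and it was -2.02 with probe sets averaged and -0.88 with probe sets that match a single transcript. The smooth muscle gamma actin Actg2 stood at 2.99 in HSC and 12.18 in VitaminA-GFP+ cells, at 3.03 in MC, 4.11 in whole liver and 7.91 in sham PF, and at 7.07, 10.26 and 4.21 in the HSC, PF and MC arrays of biliary fibrosis. VitaminA-GFP+ cells were the highest array, PF of biliary fibrosis the next, and HSC and MC the lowest. Acta2, whose promoter is printed above, had a level of 7.13 in HSC, 13.47 in VitaminA-GFP+ cells, 11.002 in sham PF, 10.64 in MC and 6.12 in whole liver, with 11.47 in HSC, 12.46 in PF and 10.16 in MC of biliary fibrosis. VitaminA-GFP+ cells were again the highest array, and whole liver and HSC the lowest. The probe sets of Acta2 differed by -6.34 to -2.37 between the arrays of the pair, with a mean of -3.64. Cardiac troponin T, Tnnt2 (-7.42), the muscle ankyrin repeat protein Ankrd1 (-7.72), calponin, Cnn1 (-6.09), leiomodin, Lmod1 (-5.27), and smooth muscle myosin, Myh11 (-3.83), were lower in HSC too. Transgelin, Tagln, stood at 11.63 in HSC and 13.72 in VitaminA-GFP+ cells, bright in both, and the difference of -2.09 was -1.88, short of the rule, with arrays shifted to the same median. Myl9, the other printed promoter, differed by -2.12, and by -1.90, likewise short of the rule, after that shift. With probe sets that match a single transcript Tnnt2 differed by 0.080, and averaged over probe sets Myh11 differed by -2.55.

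**Figure D3:**
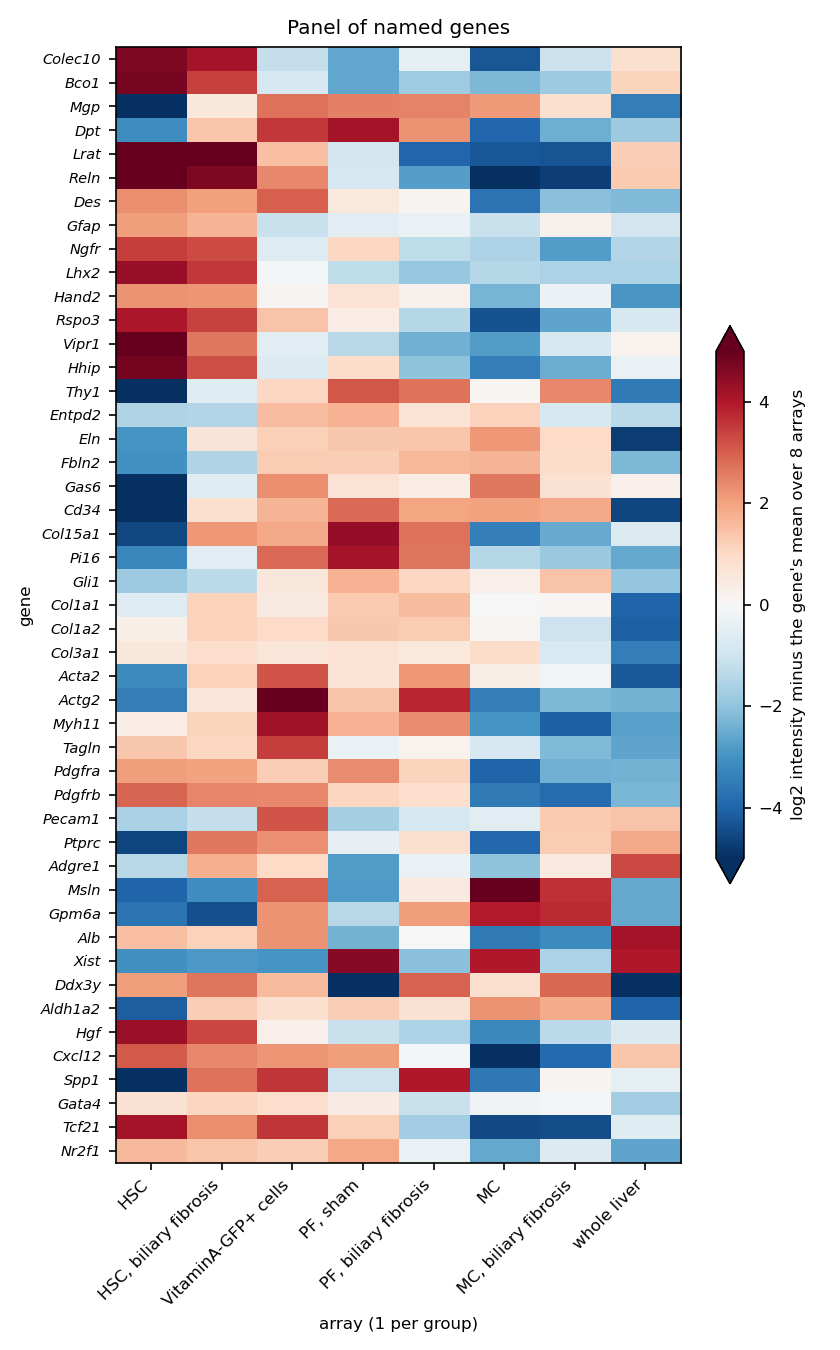
Levels of 47 named genes on the 8 arrays, each as log2 intensity minus the mean of that gene over the 8 arrays (red above, blue below; values past 5 share the end colour). The 2 HSC arrays are red for Colec10, Bco1, Lrat and Reln, and the VitaminA-GFP+ array is red for Mgp, Dpt, Actg2, Msln and Pecam1.

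Of 47 measured collagens and cross-linking genes, 2 were higher in HSC (4.82 for Col24a1, 2.03 for the lysyl oxidase-like Loxl4), 8 lower and 37 neither, with a median of -0.34. Col24a1 is itself a fibrillar collagen, and Loxl4 averaged over probe sets differed by 1.38, short of the rule. Col1a1, whose control sequences drive the reporter, measured 11.29 in HSC against 12.36 in VitaminA-GFP+ cells, and 7.91 in whole liver, 11.94 in MC, 13.22 in sham PF, 13.07 in HSC of biliary fibrosis, 13.49 in PF of biliary fibrosis and 12.03 in MC of biliary fibrosis. All sorted arrays lay above whole liver. The difference of Col1a1 in the pair was -1.07, and another of its probe sets gave -2.24, past 4-fold. Col1a2 differed by -0.65 in the pair and Col3a1 by -0.052. Lower genes that organise or cross-link fibrils were led by fibromodulin, Fmod (-8.21), asporin, Aspn (-5.23), the fibril-associated collagen Col12a1 (-5.13), lysyl oxidase, Lox (-4.69), and the procollagen protease enhancer Pcolce2 (-4.58). The mean over the probe sets of Col12a1, -0.87, did not meet the rule, and that of Lox was -2.93.

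Basement membrane genes separated further. Of 28 measured, 15 were lower in HSC, 1 higher and 12 neither, with a median of -2.35 that became -1.53 when the probe sets of a gene were averaged. The 1 higher gene was laminin alpha 1, Lama1, which stood at 10.72 in HSC and 5.10 in VitaminA-GFP+ cells, at 3.87 in MC, 5.61 in whole liver and 5.71 in sham PF, and at 10.10, 7.41 and 3.88 in the HSC, PF and MC arrays of biliary fibrosis. It was highest on the 2 HSC arrays. The type IV collagen chains Col4a4 (-6.35), Col4a5 (-5.44) and Col4a6 (-6.07), Col15a1 (-6.42) and the calcium-binding matrix protein Smoc1 (-6.58) were lower in HSC.

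Matrix proteases and their inhibitors had 11 of 35 measured members lower in HSC, 0 higher and 24 neither, with a median of -0.72. The anti-angiogenic serpin Serpinf1 (-6.85), Adamtsl1 (-6.40, probe sets -6.40 to -1.47 with a mean of -3.90), stromelysin, Mmp3 (-5.01), the plasminogen activator Plat (-4.82), Mmp19 (-3.81) and the metalloproteinase inhibitor Timp1 (-3.05) were the largest.

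Mesothelial genes had the lowest median of the 25 lists. Of 32 measured markers, 30 were lower in HSC, 0 higher and 2 neither, with a median of -6.57. Mesothelin, Msln, a surface protein of mesothelium, had a level of 3.42 in HSC, 10.38 in VitaminA-GFP+ cells, 4.62 in sham PF, 12.84 in MC and 4.87 in whole liver, with 4.35 in HSC, 7.93 in PF and 11.10 in MC of biliary fibrosis. The glycoprotein Gpm6a, by which MC were sorted, measured 5.92 in HSC against 11.81 in VitaminA-GFP+ cells, and 7.02 in whole liver, 13.52 in MC, 8.16 in sham PF, 5.16 in HSC of biliary fibrosis, 11.64 in PF of biliary fibrosis and 13.28 in MC of biliary fibrosis. For both genes the 2 MC arrays were highest, VitaminA-GFP+ cells came next, and HSC were among the lowest. Uroplakin 3b, Upk3b (-9.06), the keratins Krt19 (-8.91) and Krt18 (-8.11), the protease inhibitor Slpi (-7.98) and the proteoglycan Spock2 (-8.20, and -5.05 as the mean of its probe sets) had large differences too. Gpm6a differed by -5.90, and by -3.64 with the probe set that was brightest on the 2 arrays. Of the 32 markers, 31 reached the array median in VitaminA-GFP+ cells and 5 in HSC, with summed intensities of 79681 and 6925.

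Endothelial genes came next, with 30 of 36 measured markers lower in HSC, 1 higher (Plvap, a protein of endothelial diaphragms, 3.59) and 5 neither, and a median of -5.63. The adhesion molecule Pecam1 stood at 3.72 in HSC and 8.48 in VitaminA-GFP+ cells, at 4.81 in MC, 6.76 in whole liver and 3.69 in sham PF, and at 4.15, 4.47 and 6.67 in the HSC, PF and MC arrays of biliary fibrosis. VitaminA-GFP+ cells were the highest array, above whole liver. The lymphatic and sinusoidal VEGF receptor Flt4 (-8.48), the adhesion receptor Adgrl4 (-8.21), the fatty acid binder Fabp4 (-8.04), the phosphatase Ptprb (-8.03), the water channel Aqp1 (-7.90) and the guidance receptor Robo4 (-7.82) differed most. Aqp1 is also on the cholangiocyte list, and it stood at 13.10 in VitaminA-GFP+ cells and 13.23 in MC without stated injury. With probe sets that match a single transcript Fabp4 differed by -1.90 and did not meet the rule. Of the 36, 34 reached the array median in VitaminA-GFP+ cells and 9 in HSC, and the summed intensities were 84583 and 15726. The part of cells other than fibroblasts in the 1470 lower genes was not tested.

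Blood cell genes were also on the side of VitaminA-GFP+ cells. Macrophage markers had 26 of 33 lower in HSC and 0 higher (median -3.68), lymphocyte, natural killer and neutrophil markers 17 of 25 and 0 (median -3.33), B cell and plasma cell genes 13 of 25 and 0 (median -2.28), and MHC class II presentation genes 9 of 17 and 0 (median -2.57). The array median was reached in VitaminA-GFP+ cells by 27, 20, 16 and 9 of these genes in the same order, and in HSC by 4, 2, 5 and 5. The summed intensities were 23328, 5657, 40890 and 16855 in VitaminA-GFP+ cells and 7313, 456, 2408 and 832 in HSC. With 4 of 33 macrophage markers at the array median in HSC, the sum of 7313 there comes mostly from a single gene. Lyz2, Lyz1 and Ctss, also among the 4, stood at only 5.89, 6.31 and 6.68 in HSC. The mannose receptor Mrc1 (-6.97), the receptor of macrophage colony-stimulating factor Csf1r (-6.68, probe sets -6.68 to -2.48 with a mean of -4.45) and C1qb (-5.21) stood for macrophages. Adgre1, an adhesion receptor of macrophages, had a level of 4.41 in HSC, 6.79 in VitaminA-GFP+ cells, 3.02 in sham PF, 3.78 in MC and 9.11 in whole liver, with 7.59 in HSC, 5.47 in PF and 6.28 in MC of biliary fibrosis. Whole liver was the highest array for it. The leukocyte phosphatase Ptprc differed by -6.86, but its probe sets ran from -6.86 to 0.12, the latter being the one brighter on the 2 arrays.

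Immunoglobulin genes were among the largest differences of all. The joining chain Jchain (-7.05), Ighm (-6.82), Ighg (-8.51) and Igk (-9.82, probe sets -9.82 to -4.06) were all lower in HSC. Ighg measured 3.52 in HSC against 12.03 in VitaminA-GFP+ cells, and 6.18 in whole liver, 3.63 in MC, 11.58 in sham PF, 3.21 in HSC of biliary fibrosis, 13.35 in PF of biliary fibrosis and 5.66 in MC of biliary fibrosis. It was above 10 on the array of VitaminA-GFP+ cells and on both PF arrays. These families hold near-identical copies, so which gene a probe set measured is uncertain. Averaged over probe sets, Ighg differed by -5.29 and Igk by -5.34. Among MHC class II genes, the chaperone Cd74 (-6.40), H2-Ab1 (-5.99) and H2-Eb1 (-5.83) differed most.

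Most hepatocyte genes did not meet the rule. Of 31 measured markers, 1 was higher in HSC (the urea cycle enzyme Cps1, 2.41), 4 lower (Ambp by -3.63, Cyp2e1 by -2.77, Rbp4 by -2.02 and transthyretin, Ttr, by -2.003) and 26 neither, with a median of -0.35. The array median was reached by 26 of the 31 in HSC and 24 in VitaminA-GFP+ cells, with summed intensities of 8098 and 16115. Albumin, Alb, stood at 11.60 in HSC and 12.33 in VitaminA-GFP+ cells, at 6.57 in MC, 14.27 in whole liver and 7.73 in sham PF, and at 11.26, 10.06 and 6.91 in the HSC, PF and MC arrays of biliary fibrosis. It was bright on both arrays of the pair and brighter in whole liver. Ttr did not meet the rule with arrays shifted to the same median (-1.79). Cholangiocyte markers had 14 of 22 lower in HSC and 0 higher, with a median of -3.09, and several of the leading members, Krt19, Krt7 (-5.76) and Cdh1 (-6.93), are on the mesothelial list as well.

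Immediate early and heat shock genes, which cell isolation can induce, were lower in HSC for 9 of 38, higher for 0 and neither for 29, with a median of -0.64. Cyclooxygenase 2, Ptgs2 (-5.44), the AP-1 subunit Fosl1 (-4.39), Gadd45b (-3.38) and the nuclear receptor Nr4a2 (-2.95) led. Fosl1 differed by -1.44 with the probe set that was brightest on the 2 arrays and did not meet the rule. Both arrays were bright for the list, with medians of 5.79 above the array median in HSC and 6.52 in VitaminA-GFP+ cells. Of 36 measured cell cycle genes, 1 was higher (the kinesin Kif11, 2.002) and 1 lower (the survivin gene Birc5, -2.31), with a median of -0.36. Top2a had a difference of -1.83 and probe sets from -1.83 to 2.02, and the mean over the probe sets of Kif11 was 0.39, so neither direction held over the probe sets.

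**Figure D4:**
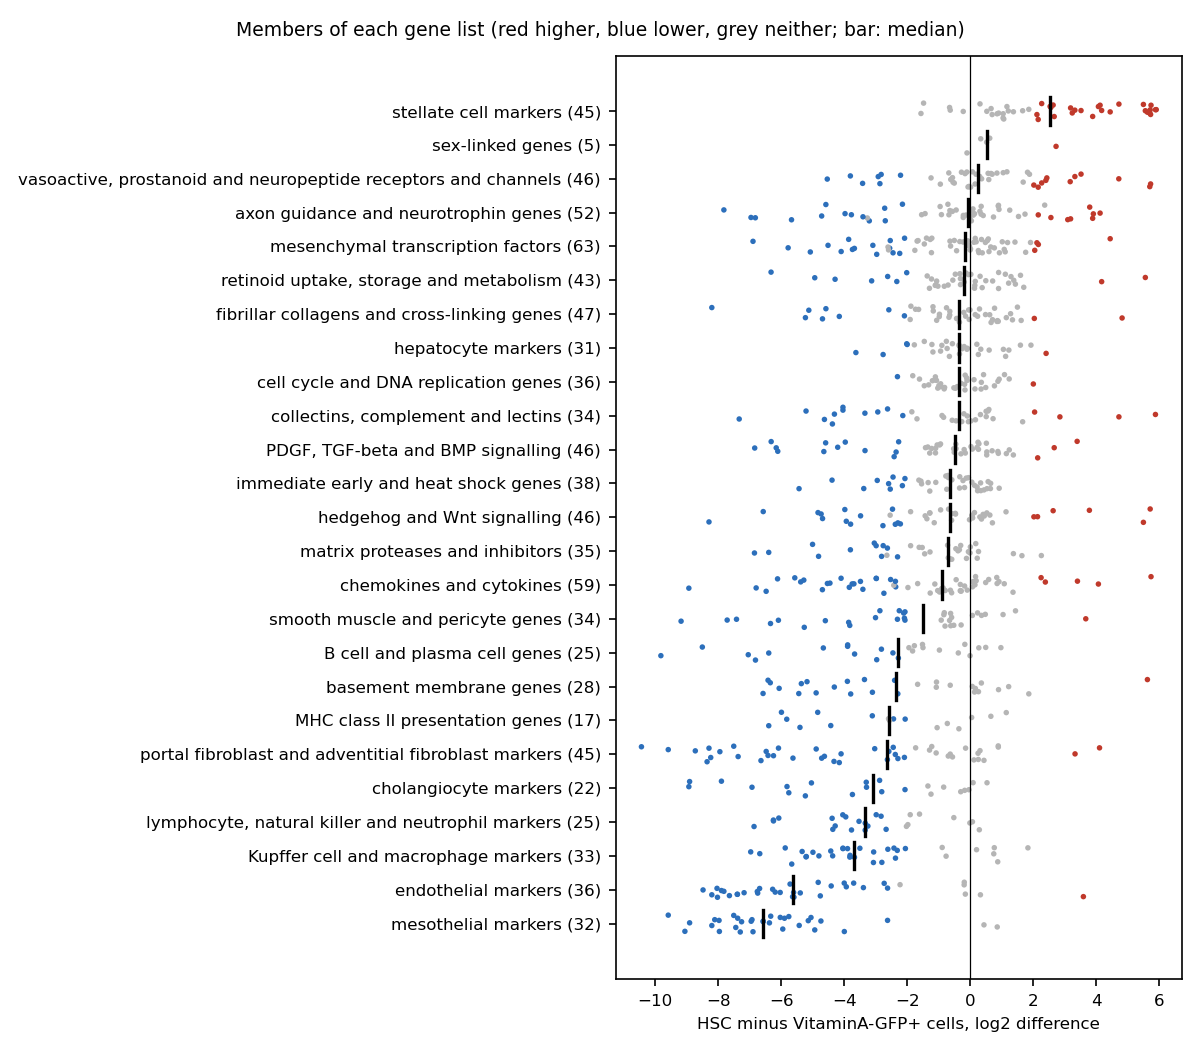
Differences (HSC minus VitaminA-GFP+ cells, log2) of the measured members of 25 gene lists, 1 point per gene, with the number of members in brackets; red points were called higher, blue points lower and grey points neither, and the bar is the median. Stellate markers have the highest median, 2.53, and mesothelial markers the lowest, -6.57.

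A pair that shares no array with this one was HSC against PF, both of biliary fibrosis. PF are not the same gate as VitaminA-GFP+ cells, the condition differs, and these arrays had higher Gapdh ratios (5.68 and 10.2). In that pair 1.95% of all genes were 4-fold higher in HSC and 4.1% lower. The shares over all genes given here include genes too dim to be called. The called genes had to reach an array median in the pair without stated injury, so the shares are not matched for level. Of the 593 genes higher in HSC without stated injury, 131 (22.1%) were also higher there and 4 were lower. They made up 32.4% of the 404 genes higher in HSC in that pair. That 131 is a different count from the genes matched in level above, although the numbers coincide. Of the 1470 lower genes, 449 (30.5%) were also lower there and 20 were higher, and they made up 53.0% of the 847 lower genes of that pair. At 2-fold, 185 of the 593 were higher there and 13 lower, and 721 of the 1470 were lower there and 105 (7.14%) higher, against 7.92% of all genes higher and 9.84% lower.

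Gene groups held in that pair to unequal degrees. The lists were chosen with earlier results of these data known, so their counts here are a description and not separate support. Stellate markers had 33 of 45 members higher and 0 lower, with Lrat (9.06), Fcna (8.42) and Reln (7.45) at the top. Mesothelial markers had 22 of 32 lower and 0 higher, portal fibroblast markers 14 of 45 lower and 2 higher, and smooth muscle and pericyte genes 5 of 34 lower and 1 higher. Endothelial markers had 2 of 36 lower and 4 higher, and macrophage markers 0 of 33 lower and 4 higher. Over all genes 1.95% were higher and 4.1% lower in that pair. The share of endothelial markers that were lower is near that of all genes. B cell and plasma cell genes had 8 of 25 lower and 0 higher, with Ighg at -10.14. Mgp differed by -10.44 without stated injury and by -1.93 in the biliary fibrosis pair, and Dpt by -6.64 and -0.88, with both at higher levels in HSC of biliary fibrosis than in HSC without stated injury.

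**Figure D5:**
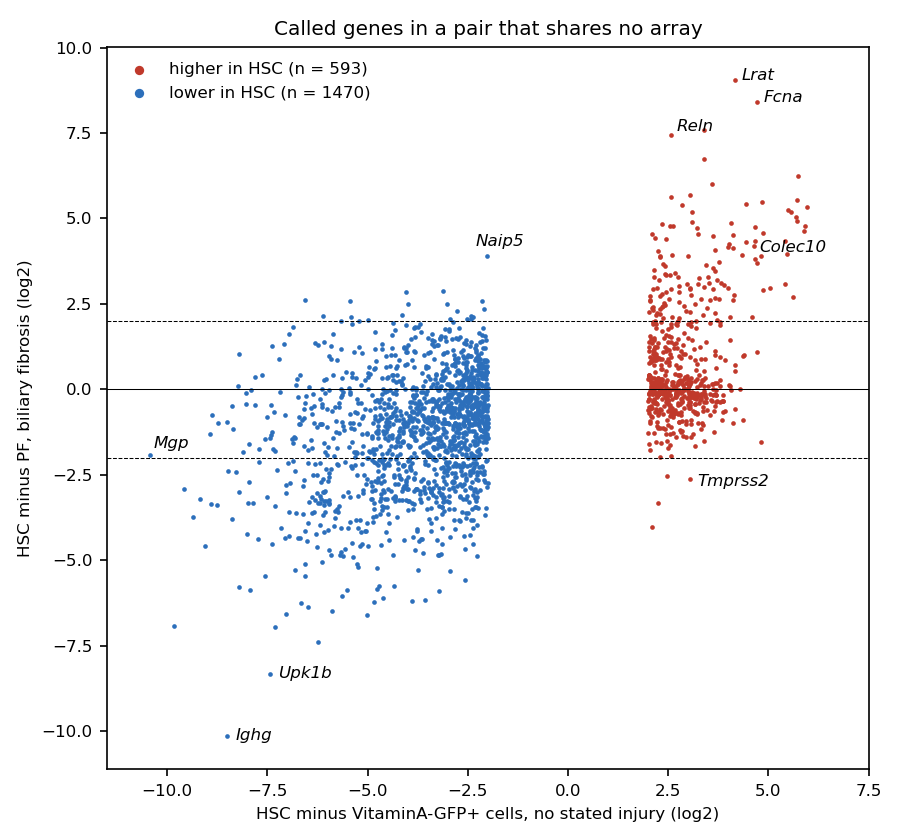
Differences of the 2063 called genes between HSC and VitaminA-GFP+ cells without stated injury (x axis) and between HSC and PF of biliary fibrosis (y axis), both in log2; red points are the 593 genes higher and blue points the 1470 lower on the x axis, and dashed lines mark 4-fold on the y axis. Of the red points, 131 lie above the upper dashed line with the higher array at its median, and of the blue points 449 lie below the lower one.

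The 1470 genes brighter in VitaminA-GFP+ cells were looked up on arrays outside the pair. Within 1 log2 unit of the VitaminA-GFP+ level, or above it, stood 771 (52.4%) in sham PF, 622 (42.3%) in MC without stated injury and 481 (32.7%) in whole liver, against 79.2%, 74.7% and 69.1% of all genes at or above the median of VitaminA-GFP+ cells. Sham PF alone of these 3 arrays matched 298 genes, MC alone 154 and whole liver alone 154, while 285 (19.4%) were matched by none of them. HSC of biliary fibrosis matched 515 (35.0%). None of the other 6 arrays matched 182 (12.4%), against 2.33% of all genes at or above the median. The 1470 genes were picked for a high level on the VitaminA-GFP+ array, and the background was not. Fewer matches on other arrays are therefore partly fixed by that choice.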

How the data were processed

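RNA from whole liver and sorted liver cells was amplified with a Nugen kit from 20 ng and measured on Affymetrix mouse genome arrays, 8 in all and 1 per group, per the labels' protocols. The authors made the deposited intensities with Partek and RMA, per the submitters' processing notes. Versions are not given in the sources used here, nor whether RMA was run jointly. The values are on a linear scale, where log2 had been assumed in the design, and were put on the log2 scale before use. The 2 deposited tables were identical (largest difference 0), and 1 was used. Array medians ran from 39.62 to 51.22, and the number of arrays limits the precision.

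Of 45101 probe sets, 64 are controls, 38011 name 1 gene, 1280 several and 5746 none. Symbols were updated through gene identifiers for 35012. For each of 20677 genes the probe set with the largest average over the 8 arrays was kept, a choice among several for 9608 genes. Clone-type names are those of predicted or cDNA-clone genes. Differences were computed in Python 3.11.15 with numpy 2.4.6 and pandas 2.3.3, and drawn with matplotlib 3.10.9. The calling code was run on simulated data with an assumed spread, which does not measure the error of the calls on these arrays.

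Named genes are the 15 largest differences each way, up to 6 examples per list, and a fixed set of marker genes. The examples have the largest differences among list members at or above the median on either array, whether called or not. Some genes that the rule names are not reported here. Genes of counts of 5 or fewer, and other genes outside that rule, were named after their values were seen. The members and lists were chosen with earlier results of these data known. Alternatives were a new quantile normalization, a shift to equal medians, other minimum levels and folds, and other choices of probe set. No coordinates of the arrays' probes were used.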

Additional observations from a re-analysis of the deposited data

Results flagged for a closer look

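Probe sets that name no gene stood outside the comparison by gene, and many of them met the same 4-fold rule. Of 5746 such probe sets, 407 (7.08%) were higher in HSC than in VitaminA-GFP+ cells and 107 (1.86%) lower. Of the 38011 probe sets that name 1 gene, 936 (2.46%) were higher and 2188 (5.76%) lower, so the split ran the other way. Of 1280 probe sets that name several genes, 48 (3.75%) were higher and 59 (4.61%) lower. There are no control samples for this count, and the cause was not tested.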

How the results depend on the processing

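No paired analysis was possible because each group is 1 array. Of 176 named genes, 100 moved by at most 0.5 (log2) under all 5 settings of scaling and probe set, and 20 of 25 list medians did so. A new quantile normalization gave 621 higher and 1352 lower genes, no minimum level 735 and 1571, and averaging over a gene's probe sets 456 and 1169. A shift to equal medians moved the median of all genes from 0.059 to 0.27. With the 75th percentile as the minimum level, 263 genes were higher, 824 lower and 488 called genes had the same sign at 2-fold or more in the biliary fibrosis pair, against 593, 1470 and 906. A 2-fold rule gave 1593, 2838 and 1429, and an 8-fold rule 213, 884 and 587. Both follow from the rule's construction. Averaging probe sets moved the medians of smooth muscle genes to -2.02, endothelial markers to -5.02, macrophage markers to -3.07, cholangiocyte markers to -2.43 and basement membrane genes to -1.53. With probe sets that match a single transcript the smooth muscle median was -0.88. The same choice turned Tnnt2 (0.080), Laptm5 (0.43) and Ptprc (0.12), and Ptprc (0.12) turned with the probe set brightest on the 2 arrays. Top2a, not called at -1.83, stood at 2.02 under both of these choices. The cause was not tested. Chosen after seeing the data, 4 restrictions left 131 higher genes within 2-fold in HSC of biliary fibrosis, 295 without those within 2-fold in MC, 369 without clone-type names, and 771 lower genes within 2-fold in sham PF. Without clone-type names 1410 lower genes were left. Probe sets dim on both arrays limit what can be called.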

Other observations

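Opposite calls between the pair without stated injury and the pair of HSC and PF of biliary fibrosis numbered 4 of the 593 higher and 20 of the 1470 lower genes (1.36%), and the genes are named here after their values were seen. In that pair 1.95% of all genes were higher in HSC and 4.1% lower, shares that are not matched for level. Tmprss2, a serine protease of epithelia, was higher in HSC by 3.03 in the first and differed by -2.63 in the other. Its first difference was 0.38 with probe sets averaged and -1.92 with probe sets that match a single transcript, so its direction depends on the probe set. Acot4, an acyl-CoA thioesterase, differed by 2.46, or 1.71 with probe sets averaged, and -2.54. Among the 20 genes that were lower in HSC in the first pair and higher in the other, several are known from macrophages. Naip5, an inflammasome sensor of flagellin, differed by -2.01, or -1.80 with arrays shifted to the same median, and 3.89, Adgre1 by -2.37 and 2.12, C1qa by -4.04 and 2.86, and the scavenger receptor Msr1 by -4.995 and 2.04. The platelet and sinusoidal receptor Clec1b (-6.56 and 2.61) and the endothelial factor Sox7 (-5.44 and 2.60) did the same. Averaged over probe sets, Msr1 differed by -2.96 and Sox7 by -2.69 in the first pair. Macrophage markers reached the array median for 4 of 33 genes in HSC without stated injury, 27 in VitaminA-GFP+ cells, 26 in HSC of biliary fibrosis and 19 in PF of biliary fibrosis. Their part in these opposite calls was not tested.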
